A study of Rattus norvegicus with 18 samples.

Results

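Aminoacyl-tRNA synthetases are the enzymes that load each amino acid onto its transfer RNA. They were followed here in microdissected rat cortical collecting ducts, the kidney tubule segment that makes the last adjustments to urinary salt, acid and water. Members were the genes whose annotation line in the deposited table names a tRNA synthetase or a tRNA ligase, and the rule found 35 of 32883 rows. Of these, 17 encode cytosolic and 18 mitochondrial enzymes. The rows of Mars2 and LOC100911305, both annotated as the mitochondrial methionine enzyme, held identical values in all 18 libraries, so the 35 rows stand for 34 distinct measurements. Another 4 charging enzymes, Aars, Dars, Gars and Kars, carry no annotation line in the table and fall outside the rule. They are described apart, the last 2 because they also serve both compartments.

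Male Sprague-Dawley rats had received lipopolysaccharide (LPS), a component of the bacterial outer membrane, or normal saline (Vehicle) intraperitoneally 3 h before the ducts were dissected. The labels describe pathogen-free animals housed 1 per cage with equal hours of light and dark, and give no age and no LPS dose. Each of the 2 groups held 3 numbered samples with 3 libraries each, 18 libraries in all, and the series' design text calls the 2 sets of samples paired. Whether each numbered sample was a different animal is not stated, so p-values cover only the spread seen among these samples. Expression is given as TPM, a transcript's share of all transcripts after correction for length, scaled to the same total in every library. The read depth behind a TPM value is therefore unknown.

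A synthetase recognises 1 amino acid and the tRNAs that carry its anticodons, joins them at the cost of ATP, and hands the charged tRNA to the elongation factor that feeds the ribosome. Cytosolic and mitochondrial ribosomes are supplied by separate sets of enzymes, nearly all of them encoded by separate nuclear genes. Several cytosolic synthetases are held on scaffold proteins in a multi-synthetase complex. The 2 structural classes, I and II, have unrelated catalytic folds. Uncharged tRNA activates the kinase Eif2ak4 (GCN2), which raises translation of the transcription factor ATF4, and many cytosolic synthetase genes are known ATF4 targets. Tryptophanyl-tRNA synthetase is also known as an interferon-gamma inducible gene.

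Between 11399 and 12704 genes reached 1 TPM in a library, and libraries of the same sample correlated at r = 0.949 to 0.979 across genes. LPS sample 1 stood closer to Vehicle than the other LPS samples did. Its libraries had a mean r of 0.923 with Vehicle libraries, against 0.862 for LPS 2 and 0.866 for LPS 3. Of all 12393 genes tested, 62.8% had an LPS 1 value between the Vehicle mean and the mean of LPS 2 and 3, and so did 13 of the 17 cytosolic and 14 of the 18 mitochondrial members. The labelled tissue was checked against principal and intercalated cell markers. Their summed levels were 16787 to 18250 TPM and 10582 to 10728 TPM in Vehicle, and 9499 to 13099 TPM and 7984 to 9867 TPM in LPS. In bulk samples such as these, fewer cells of a type and less RNA per cell cannot be told apart.

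All 35 members reached the mean of 1 TPM needed for testing, and none was near 0 in either group. In Vehicle the cytosolic enzymes ranged from 6.41 TPM (Tars3) to 134 TPM (Rars1), with a median of 46.1 TPM. The mitochondrial enzymes ranged from 6.11 TPM (Ears2) to 50.1 TPM (Fars2), with a median of 17.7 TPM. Summed over members, the cytosolic set came to 923 ± 27.4 TPM (SD, n = 3) in Vehicle and 1071 ± 56.3 TPM in LPS. For the mitochondrial set the sums were 374 ± 12.1 TPM with Vehicle and 253 ± 46.5 TPM with LPS. The summed cytosolic-to-mitochondrial ratio was 2.45, 2.51 and 2.43 in Vehicle samples 1 to 3 and 3.28, 4.94 and 4.80 in LPS samples 1 to 3. Rars1 accounted for more than the whole difference in the cytosolic sum: without it the sum was 790 ± 40.7 TPM with Vehicle and 690 ± 28.0 TPM with LPS. Rars1 made up 14.5% ± 3.49 of the cytosolic sum in Vehicle and 35.5% ± 2.73 in LPS.

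**Figure D1:**
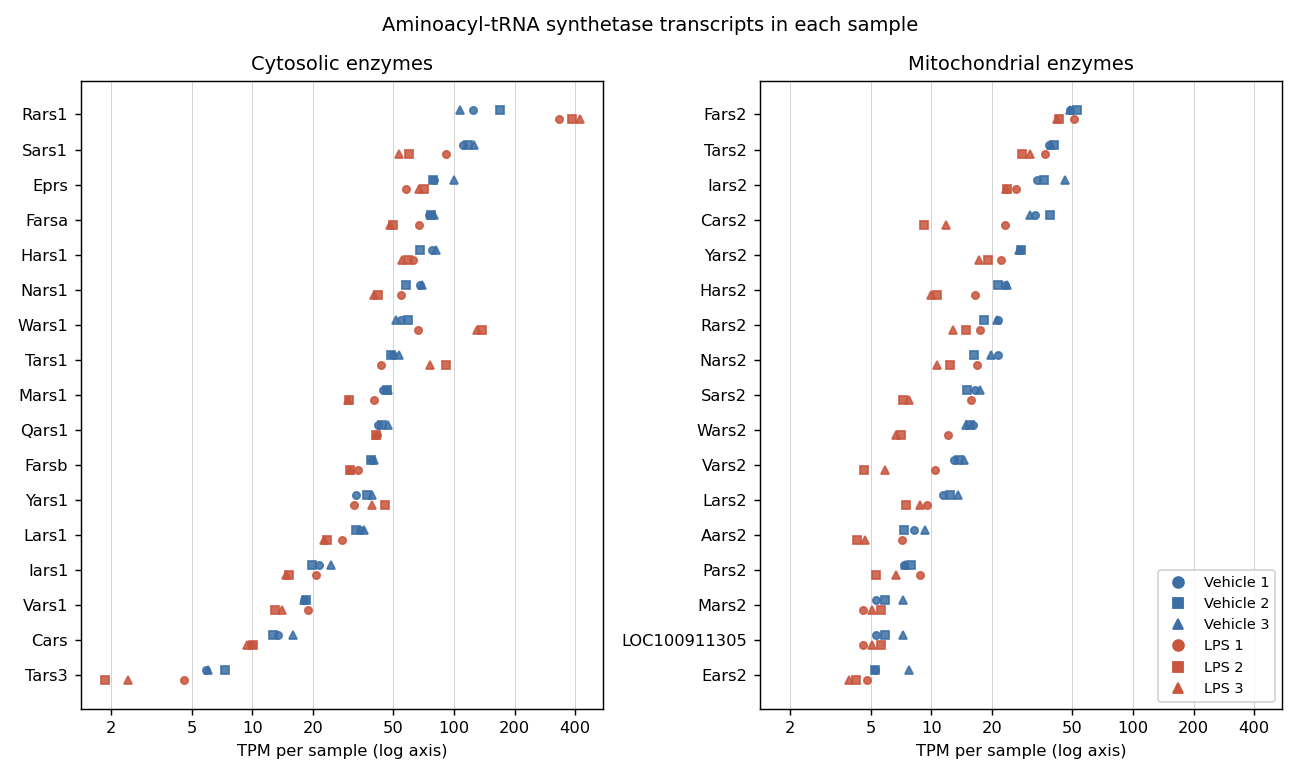
TPM of each synthetase gene in each of the 6 samples (mean of 3 libraries) on a log axis, cytosolic enzymes on the left and mitochondrial enzymes on the right, ordered by Vehicle level, with 1 mitochondrial member not shown; colour gives the group and shape the sample number. Rars1 lies at 107 to 170.2 TPM in Vehicle and 332 to 421 TPM in LPS, while most other genes lie to the left of their Vehicle points.

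LPS was compared with Vehicle by limma on log2(TPM + 1), a test fitted over all 12393 tested genes with the sample number as a block and with Benjamini-Hochberg adjustment. A gene was called at an adjusted p under 0.05. Among cytosolic members Rars1 and Wars1 were called higher, Sars1 and Tars3 were called lower, and 13 did not pass. Among mitochondrial members 0 were called higher, 5 were called lower, among them Cars2, Hars2, Vars2 and Wars2, and 13 did not pass. At an unadjusted p under 0.05 the mitochondrial counts were 0 higher and 10 lower and the cytosolic counts 2 higher and 7 lower, where 9.49% of all tested genes were higher and 37.8% lower. Over all tested genes 7.17% were called higher and 22.2% lower, so the 5 of 18 lower calls among mitochondrial members and the 2 of 17 among cytosolic members are shares of the same order as the background. Every LPS sample lay below every Vehicle sample for 11 cytosolic and 12 mitochondrial members, where 47.1% of all tested genes did so. Every LPS sample lay above every Vehicle sample for 2 cytosolic members and 0 mitochondrial ones, against 9.82% of all tested genes.

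On the TPM scale the median log2 change over all tested genes was -0.38, so a value of that size was typical of any gene. The cytosolic median was -0.38 and the mitochondrial median was -0.50. Rescaling each library by its median ratio moved the median of all genes by 0.36, to -0.02, and put the cytosolic median at 0.01 and the mitochondrial median at -0.12. On the TPM scale 13 of 17 cytosolic and 18 of 18 mitochondrial members had a change below 0, as did 9486 of the 12393 tested genes. After median-ratio scaling 7 and 13 members and 6428 tested genes did, and after quantile normalization 11 and 14 members and 7684 tested genes. Under either rescaling Rars1 was the 1 cytosolic member still called higher and 0 members of either compartment were called lower, with background shares of 6.62% higher and 3.71% lower (median ratio) and 6.46% and 4.53% (quantile). The falls of members named below are thus falls relative to a library's total, and none of these members was called lower under either rescaling. Counts also depended on the samples and on the block. Every fit that left out a single sample also had no block. Both changes therefore enter its counts and the leave-out p-values given below. Without LPS 1, 3 cytosolic members were called higher and 11 lower and 13 mitochondrial members lower, where 10.9% and 46.5% of all genes were called higher and lower. Without the block but with all samples kept, the higher count was again 2 (7.36% of all genes). The lower counts were then 6 cytosolic and 8 mitochondrial (29.2%). With all 18 libraries in the fit and an estimated correlation within samples, 2 were higher (9.59% of all genes) and 10 cytosolic and 11 mitochondrial members lower (42.7%). With any 1 of the other samples left out, the only member called higher was Rars1, 0 cytosolic members were called lower, and 0 mitochondrial members were called lower except 1 without Vehicle 2. In those fits 3.05% to 4.13% of all genes were called higher and 1.90% to 9.21% lower.

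**Figure D2:**
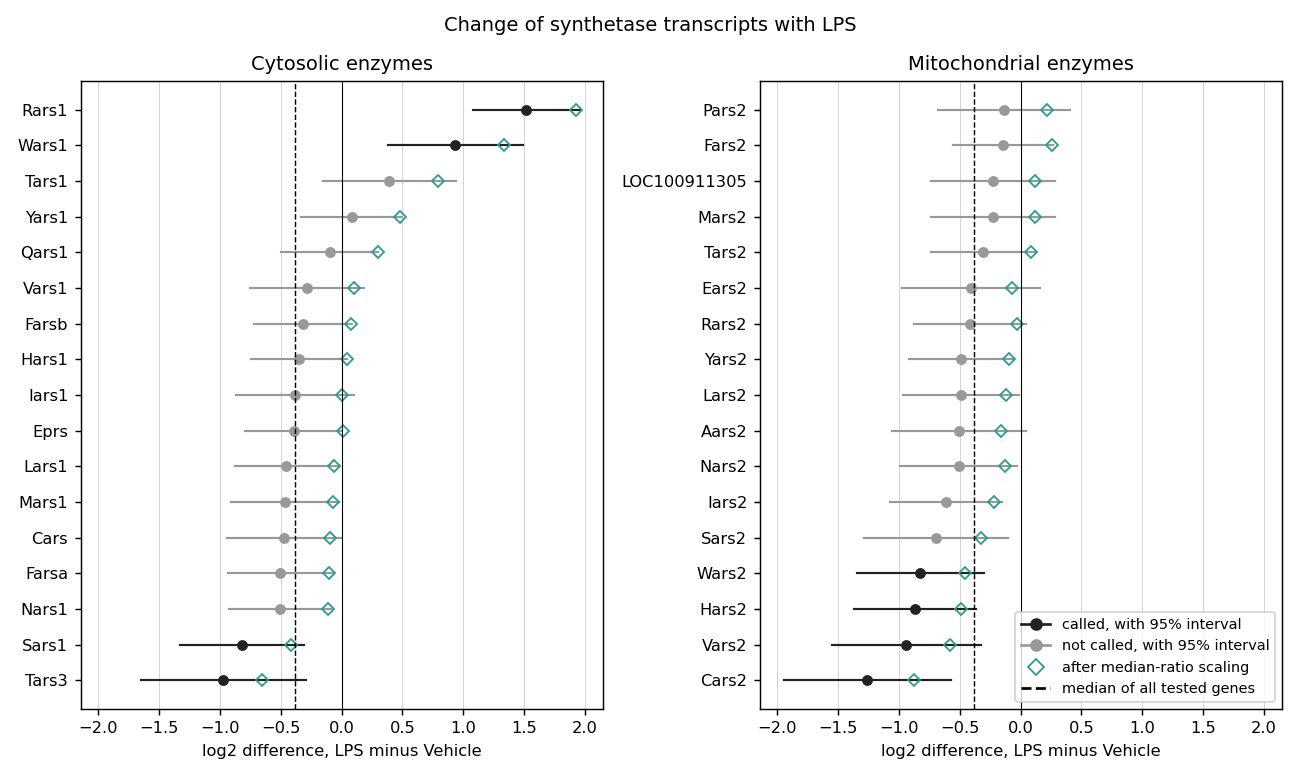
Log2 difference between LPS and Vehicle for each synthetase gene but 1 mitochondrial member not shown, with its 95% interval from the limma fit; black points were called and grey points were not, open diamonds give the value after median-ratio scaling, and the dashed line is the median of all tested genes at -0.38. Rars1 (1.52) and Wars1 (0.94) stand furthest to the right, and every mitochondrial point shown lies left of 0 before rescaling.

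Arginine is charged in the cytosol by Rars1 (ENSRNOG00000007739), a class I enzyme and a member of the multi-synthetase complex. Its level was 124, 170.2 and 107 TPM in Vehicle samples 1 to 3 and 332, 388 and 421 TPM in LPS samples 1 to 3. All 3 LPS samples lay above all 3 Vehicle samples, and the lowest LPS library, at 303 TPM, exceeded the highest Vehicle library, at 175 TPM. Mean TPM was 2.85-fold higher in LPS, a log2 change of 1.52 ± 0.19 (SE; 95% interval 1.08 to 1.96) with a limma adjusted p of 0.00386. The change was positive in 3 of 3 numbered pairs (1.41, 1.18 and 1.97). After median-ratio scaling it was 1.93, with a limma adjusted p of 0.0219. LPS 1, which lay near Vehicle for many genes, was well above Vehicle here. No other RefSeq gene model overlaps Rars1. The mitochondrial arginine enzyme Rars2 lay at 21.5, 18.2 and 21.1 TPM in Vehicle and 17.4, 14.8 and 12.8 TPM in LPS, a log2 change of -0.42 that did not pass the test (adjusted p = 0.132, limma). RefSeq models of Orc3 and Slc35a1 overlap Rars2, so its reads may be shared with them. Orc3 was called lower (-0.75, limma adjusted p = 0.0308) and Slc35a1 was not (-0.50, limma adjusted p = 0.0619).

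Tryptophan is charged in the cytosol by Wars1 (ENSRNOG00000004359) and in mitochondria by Wars2 (ENSRNOG00000019508), both class I. The level of Wars1 was 54.8, 59.2 and 51.9 TPM in Vehicle and 66.7, 138 and 131 TPM in LPS. LPS 1 stood just above the Vehicle samples, while LPS 2 and LPS 3 were well above them. The mean was 2.02-fold higher in LPS, with a log2 change of 0.94 ± 0.23 (SE; 95% interval 0.38 to 1.49) and a limma adjusted p of 0.0303. After median-ratio scaling the change was larger, 1.34, but its adjusted p was 0.0598, and after quantile normalization it was 1.07 with an adjusted p of 0.0619, both in limma. Leaving out LPS 2, LPS 3 or any Vehicle sample raised the limma adjusted p to between 0.0763 and 0.121, and leaving out LPS 1 lowered it to 0.000353. Wars2 moved the other way, from 16.1, 15.5 and 14.8 TPM in Vehicle to 12.1, 7.12 and 6.66 TPM in LPS. Its groups did not overlap, and its log2 change was -0.82 ± 0.22 (SE), with a limma adjusted p of 0.0362. The Wars1-to-Wars2 ratio, which does not depend on how a library is scaled, was 3.41, 3.80 and 3.50 in Vehicle and 5.55, 19.5 and 19.7 in LPS.

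The sequences before the start of this pair are shown because the 2 genes serve the same amino acid and changed in opposite directions. They are RefSeq bases on GRCr8, read 5′ to 3′ on the gene's strand and trimmed to the part outside any RefSeq gene model. The Wars1 stretch is chr6:133571646-133571789 on the minus strand, 144 bases between Wars1 and the neighbouring Wdr25. The Wars2 stretch is chr2:189150111-189150321 on the plus strand, 211 bases. Capitals mark a match to the STAT motif TTCNNNGAA.
Wars1: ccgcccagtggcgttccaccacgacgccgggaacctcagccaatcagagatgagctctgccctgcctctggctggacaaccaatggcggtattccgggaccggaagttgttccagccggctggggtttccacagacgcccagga
Wars2: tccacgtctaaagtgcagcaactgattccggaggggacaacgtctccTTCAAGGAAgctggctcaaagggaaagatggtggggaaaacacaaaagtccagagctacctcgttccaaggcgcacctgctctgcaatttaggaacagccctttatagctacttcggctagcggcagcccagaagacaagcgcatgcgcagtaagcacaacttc
The window of 250 bases before the start was searched on both strands for 3 motifs in the 32 members with a RefSeq promoter entry. Rars1 had no such entry, so its promoter was not searched for any of the 3 motifs. The STAT motif, a palindrome, matched in 4 of 32 members (Lars1, Qars1, Nars2 and Wars2), against 7.67% of 33469 rat promoters. The interferon-stimulated response element core, spelled GAAA, any 2 bases and GAAA, matched in 1 (Mars2), against 3.41% of promoters. Wars1 held no match to either motif in this window, which says only that these letters are absent there. Wdr25, whose model starts close to that of Wars1, was not called, with means of 5.90 TPM (Vehicle) and 4.88 TPM (LPS).

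**Figure D3:**
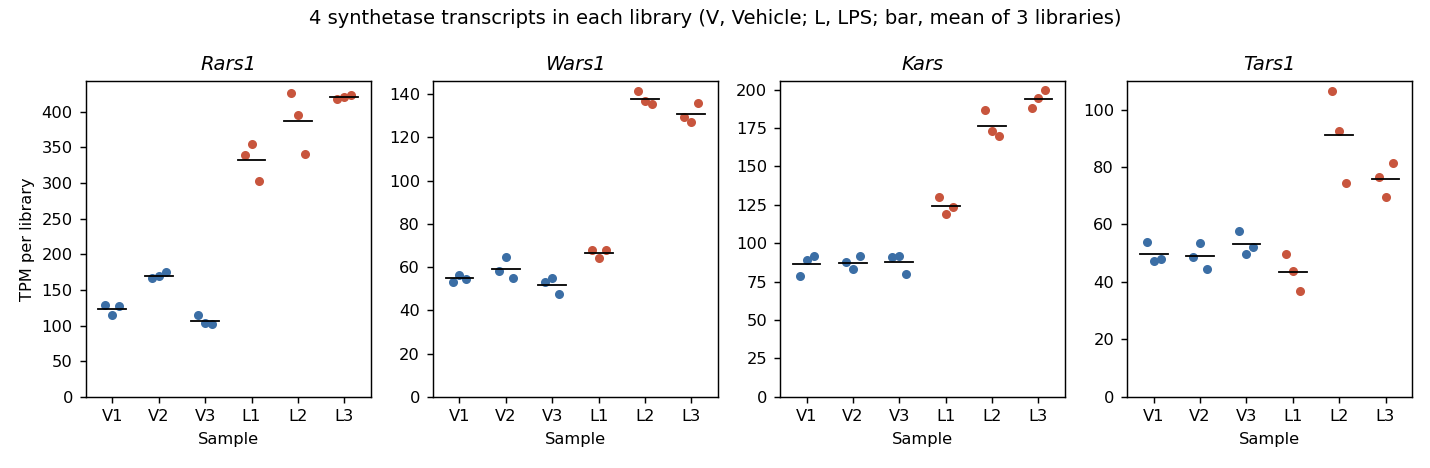
TPM of Rars1, Wars1, Kars and Tars1 in each library, by sample (V, Vehicle; L, LPS), each point 1 library and each bar the mean of the 3 libraries of a sample; all axes start at 0. For Wars1 and Tars1 the libraries of LPS 1 lie close to Vehicle, and for Rars1 and Kars all LPS libraries lie above all Vehicle libraries.

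Lysine and glycine are charged in both compartments by products of single genes, Kars and Gars, which lie outside the annotation rule. Kars, a class II enzyme of the multi-synthetase complex, rose from 86.4, 87.4 and 87.4 TPM in Vehicle to 124, 176 and 194 TPM in LPS. Its log2 change was 0.89 ± 0.18 (SE), with a limma adjusted p of 0.0180. This held after median-ratio scaling (1.29, adjusted p = 0.0384) and quantile normalization (0.97, adjusted p = 0.0377), both in limma. Leaving out LPS 2, LPS 3, Vehicle 1 or Vehicle 3 took the limma adjusted p to between 0.0559 and 0.0650. Gars, also class II, went the other way, from 117, 119 and 115 TPM to 84.8, 53.0 and 60.8 TPM, a log2 change of -0.84 ± 0.19 (SE) with a limma adjusted p of 0.0236. After median-ratio scaling the change of Gars was -0.43 and its limma adjusted p 0.109, and leaving out LPS 2, LPS 3 or any Vehicle sample gave 0.0555 to 0.0741. The alanine enzyme Aars (53.8 ± 7.58 TPM in Vehicle, 40.7 ± 1.94 in LPS) and the aspartate enzyme Dars (86.4 ± 6.34 and 63.8 ± 6.85) were not called.

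Serine is charged in the cytosol by Sars1, a class II enzyme and the second most abundant cytosolic member. Its level was 111, 117 and 126 TPM in Vehicle and 91.9, 59.9 and 53.4 TPM in LPS. The groups did not overlap, and the log2 change was -0.82 ± 0.22 (SE; 95% interval -1.32 to -0.31), with a limma adjusted p of 0.0346. Its mitochondrial counterpart Sars2 lay at 16.4, 15.0 and 17.4 TPM in Vehicle and 15.7, 7.25 and 7.72 TPM in LPS. LPS 1 fell within the Vehicle range, and the log2 change of -0.70 was the largest of the mitochondrial changes that did not pass (adjusted p = 0.0719, limma). Leaving out LPS 2, LPS 3 or any Vehicle sample raised the limma adjusted p of Sars1 to between 0.0674 and 0.0932. The Sars1-to-Sars2 ratio overlapped between groups, at 6.74, 7.85 and 7.31 in Vehicle and 5.92, 8.26 and 6.92 in LPS.

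Threonine has a pair of cytosolic genes whose changes had opposite signs. Tars1 lay at 49.7, 48.9 and 53.2 TPM in Vehicle and 43.5, 91.1 and 75.9 TPM in LPS. LPS 1 was below every Vehicle sample and LPS 2 and 3 were above, and the log2 change of 0.39 (95% interval -0.15 to 0.94) did not pass (adjusted p = 0.212, limma). Without LPS 1 the limma adjusted p was 0.00339. Tars3, a second threonyl-tRNA synthetase and the least abundant cytosolic member, lay at 5.88, 7.30 and 6.04 TPM in Vehicle and 4.61, 1.85 and 2.41 TPM in LPS. No LPS sample reached the Vehicle range, and the log2 change was -0.97 ± 0.29 (SE), with a limma adjusted p of 0.0445 that rose to between 0.0787 and 0.108 when LPS 2, LPS 3 or any Vehicle sample was left out. The mitochondrial enzyme Tars2 lay at 38.5, 40.9 and 39.2 TPM in Vehicle and 36.7, 28.1 and 31.0 TPM in LPS and was not called.

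The other 12 cytosolic members were not called. Nars1, the asparagine enzyme, had the largest fall among them, from 67.9, 57.6 and 69.4 TPM in Vehicle to 54.8, 42.0 and 40.3 TPM in LPS, a log2 change of -0.51 with a limma adjusted p of 0.0661. Eprs, which charges both glutamate and proline and was the third most abundant cytosolic member, lay at 79.7, 78.8 and 100.7 TPM in Vehicle and 57.6, 71.5 and 67.4 TPM in LPS. The glutamine enzyme Qars1 (-0.10) and the tyrosine enzyme Yars1 (0.08) had the smallest changes on the TPM scale. The low-abundance Cars (cysteine) lay at 13.4, 12.7 and 15.9 TPM in Vehicle and 9.82, 10.1 and 9.42 TPM in LPS. Vars1 (valine) lay at 18.1, 18.5 and 18.1 TPM in Vehicle and 19.0, 13.0 and 14.0 TPM in LPS, with LPS 1 above all Vehicle samples. Both subunits of the cytosolic phenylalanine enzyme had negative values, -0.50 for Farsa and -0.32 for Farsb. Hars1 (-0.35), Iars1 (-0.38), Lars1 (-0.45) and Mars1 (-0.46) lay close to the median of all genes. The reads of Mars1 and of Yars1 may be shared with Ddit3 and S100pbp, whose RefSeq models overlap them, because the library kit keeps no strand. RefSeq models with LOC symbols overlap the called members Sars1 and Cars2, and several other uncalled members also have overlapping models.

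By place in the cell, 1 of the 6 cytosolic members of the multi-synthetase complex was called higher (Rars1) and 0 lower, with a median log2 change of -0.39. Of the 11 cytosolic members outside it, 1 was called higher (Wars1) and 2 lower, with a median of -0.35. By structural class, the 9 cytosolic class I enzymes had 2 higher and 0 lower calls and a median of -0.28. The 7 cytosolic class II enzymes had 0 higher and 2 lower calls and a median of -0.50. Mitochondrial class I (10 rows) and class II (8 rows) had medians of -0.49 and -0.51. These splits are counts without a test of their difference. Eprs, which has a domain of each class, was counted in neither.

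Among mitochondrial enzymes the largest fall was that of Cars2, the cysteine enzyme, which is also known to form cysteine persulfides. Its level was 32.8, 38.8 and 31.0 TPM in Vehicle and 23.1, 9.23 and 11.9 TPM in LPS. All LPS samples lay below all Vehicle samples, with LPS 1 the nearest to them, and the log2 change was -1.26 ± 0.29 (SE; 95% interval -1.95 to -0.58), with a limma adjusted p of 0.0249. After median-ratio scaling the change was -0.88 (adjusted p = 0.0937, limma). Ing1, whose RefSeq model lies within 1 kb of Cars2, was called lower too, with a log2 change of -1.16. Naxd, the other named neighbour within 1 kb, had a change of -0.39 and was not called.

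Vars2, the valine enzyme, lay at 13.0, 13.8 and 14.5 TPM in Vehicle and 10.4, 4.62 and 5.88 TPM in LPS, a log2 change of -0.94 ± 0.26 (SE) with a limma adjusted p of 0.0384. Every LPS sample was below every Vehicle sample and LPS 1 was the highest of the LPS samples. The calls of Cars2, Vars2, Hars2 and Wars2 were lost when LPS 2, LPS 3 or any Vehicle sample was left out (limma adjusted p of 0.0551 to 0.110), and without LPS 1 the largest of their adjusted p was 0.00130.

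Histidine is charged by products of neighbouring genes that run in opposite directions: the RefSeq starts of Hars1 and Hars2 lie 144 bases apart on GRCr8. Hars2 lay at 23.3, 21.5 and 23.9 TPM in Vehicle and 16.5, 10.7 and 9.96 TPM in LPS. That fall, -0.87 ± 0.21 on the log2 scale (SE), had a limma adjusted p of 0.0284. Hars1 lay at 78.3, 67.9 and 81.6 TPM in Vehicle and 62.5, 59.2 and 55.1 TPM in LPS. Its log2 change of -0.35 did not pass (adjusted p = 0.135, limma), although its groups did not overlap either. The Hars1-to-Hars2 ratio was 3.34, 3.17 and 3.42 in Vehicle and 3.81, 5.59 and 5.54 in LPS.

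Besides Rars2 and Sars2, 11 mitochondrial rows were not called. Fars2, the phenylalanine enzyme and the most abundant mitochondrial member, lay at 48.7, 53.0 and 48.6 TPM in Vehicle and 51.2, 43.1 and 42.1 TPM in LPS, with LPS 1 inside the Vehicle range. Iars2 (isoleucine) lay at 33.4, 36.4 and 46.0 TPM in Vehicle and 26.4, 23.8 and 23.5 TPM in LPS, a log2 change of -0.61 with a limma adjusted p of 0.0530. At the low end Ears2 (glutamate) lay at 5.29, 5.25 and 7.80 TPM in Vehicle and 4.79, 4.22 and 3.90 TPM in LPS. The rows of Mars2 and LOC100911305 both lay at 5.34, 5.90 and 7.26 TPM in Vehicle and 4.59, 5.65 and 5.07 TPM in LPS. Reads of near-identical copies are split by estimate, so each row may hold only part of this enzyme's level. That was not tested. Pars2 (proline) lay at 7.33, 7.97 and 7.40 TPM in Vehicle and 8.77, 5.35 and 6.71 TPM in LPS and had the smallest mitochondrial change, -0.13. Aars2, Lars2, Nars2, Tars2 and Yars2 lay between -0.51 and -0.31 on the log2 scale.

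Ratios of cytosolic to mitochondrial enzyme for the same amino acid were formed within each sample for 15 pairs of genes, counting each subunit or activity once. The mean log2 ratio was higher in LPS for 11 of the 15 pairs. Eprs and Fars2 each entered more than 1 pair, and no background share was formed. Not among the pairs were Mars1 with Mars2 and Tars3 with Tars2. Mean TPM in LPS was 0.725-fold that of Vehicle for Mars1 and 0.828-fold for Mars2. For Tars3 and Tars2 it was 0.462-fold and 0.807-fold, so in each omitted pair the cytosolic gene fell further. Of the 15 pairs, arginine and tryptophan stood at the top, with 3.91-fold and 3.61-fold higher mean ratios. The Rars1-to-Rars2 ratio was 5.77, 9.43 and 5.08 in Vehicle and 19.1, 26.2 and 33.1 in LPS. Cysteine followed with a 1.77-fold higher mean ratio, but its groups overlapped, at 0.408, 0.327 and 0.512 in Vehicle and 0.425, 1.10 and 0.801 in LPS. Valine came next, with a Vars1-to-Vars2 ratio of 1.42, 1.38 and 1.26 in Vehicle and 1.77, 2.79 and 2.38 in LPS. Tyrosine gave 1.18, 1.33 and 1.43 in Vehicle and 1.44, 2.34 and 2.27 in LPS. For arginine, tryptophan, valine, tyrosine and histidine every LPS sample lay above every Vehicle sample, for tyrosine in LPS 1 only narrowly. The groups overlapped for threonine. Leucine and asparagine had mean ratios 1.05-fold and 1.02-fold those of Vehicle. The ratio of phenylalanine enzymes was lower in LPS, 0.777-fold for Farsa and 0.882-fold for Farsb over Fars2. In both of these pairs every LPS sample lay below every Vehicle sample, for Farsb only narrowly. With 3 samples against 3, an exact two-sided permutation test cannot give a p below 0.1, so the ratios are given as values without a test.

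**Figure D4:**
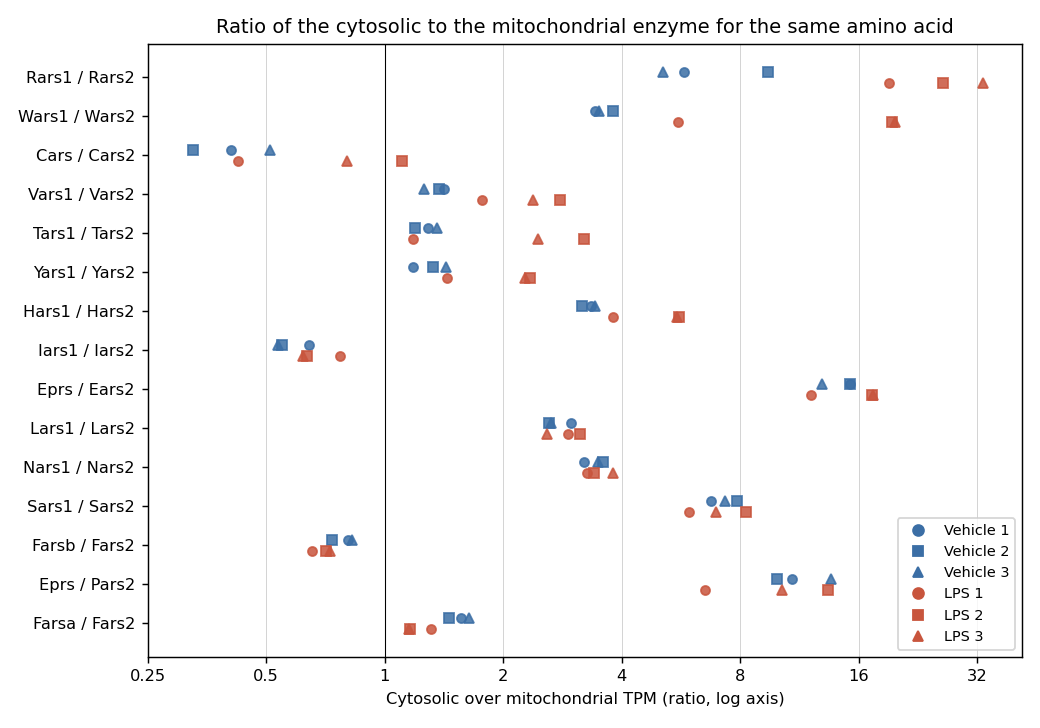
Ratio of the cytosolic to the mitochondrial enzyme's TPM for the same amino acid, 15 pairs, in each sample on a log axis; colour gives the group and shape the sample number. The ratios of arginine (5.08 to 9.43 in Vehicle, 19.1 to 33.1 in LPS) and tryptophan (3.41 to 3.80 and 5.55 to 19.7) are furthest apart, and LPS 1 is the LPS sample closest to Vehicle for both.

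The counts for the gene lists below stand beside the same background of 7.17% higher and 22.2% lower. Among proteins around the synthetases, the scaffold Aimp1 was called lower (61.8 ± 4.50 TPM in Vehicle, 39.5 ± 7.20 in LPS; log2 change -0.63, limma adjusted p = 0.0358), 1 of 3 scaffolds. Aimp2 and Eef1e1 were not called. After median-ratio scaling the change of Aimp1 was -0.23 and was not called (adjusted p = 0.208, limma). Of 7 genes that edit or release mischarged tRNA, 1 was called lower, the deacylase Dtd2 (30.6 ± 3.03 and 12.6 ± 6.57 TPM, log2 change -1.32). The change of Dtd2 was -0.94 after median-ratio scaling (adjusted p = 0.0520, limma) and -0.98 after quantile normalization (adjusted p = 0.0479, limma). Of 14 cytosolic elongation and termination factors, 1 was called higher, the ribosome rescue factor Pelo (36.9 ± 2.00 and 74.1 ± 19.0 TPM; 0.95), and 0 lower, with a list median of -0.04. Among 21 mitochondrial translation factors, 0 were called higher and 6 lower, including Gtpbp3, which modifies mitochondrial tRNA (-1.26), the release factor Mtrf1 (-1.11) and the initiator formylase Mtfmt (-0.86). Their median was -0.50, the same as that of the mitochondrial synthetases, and after median-ratio scaling it was -0.11 with 0 calls.

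The kinases and factors of the integrated stress response gave 1 higher and 2 lower calls of 16, and 1 and 1 after median-ratio scaling. The double-stranded RNA kinase Eif2ak2 (PKR), an interferon-stimulated gene, rose from 20.3 ± 3.53 to 131.8 ± 41.4 TPM (2.62, limma adjusted p = 0.00151). The endoplasmic reticulum kinase Eif2ak3 (PERK) fell from 10.1 ± 0.872 to 4.13 ± 0.868 TPM (-1.11), and the GCN2 inhibitor Impact had a change of -0.84 that was called. ATF4 and amino acid response targets, of which 22 of 28 in the table were tested, gave 2 higher and 5 lower calls and a median of -0.04, and after median-ratio scaling 2 and 1 calls and a median of 0.36. Cebpb (2.32) and Cdkn1a (1.77) were called higher, and Sesn2 (-2.32), Vldlr (-1.24) and Psph (-0.98) were the lower calls with the smallest p. Atf4 itself lay at 292 ± 57.7 TPM in Vehicle and 290.5 ± 65.5 in LPS, and the targets Asns (0.47) and Ddit3 (-0.04) were not called.

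The last 30 bases before the start are shown for the 4 cytosolic members with a match to the CEBP-ATF response element TGATGNAAN, the kind of element bound by ATF4 with its C/EBP partners. They were chosen after the matches were seen. The stretches are RefSeq bases on GRCr8, all of genes on the minus strand: chr17:15193653-15193682 (Iars1), chr7:65023754-65023783 (Mars1), chr18:60275783-60275812 (Nars1) and chr2:62114803-62114832 (Tars1). Capitals mark the match, which lies on the reverse strand in all but Nars1.
Iars1: tcagtATTGCATCAcctccagacgcggaac
Mars1: aggcccgttccgGTTGCATCAgcgtgggct
Nars1: gctgccctaggtgatcTGATGCAACgcttc
Tars1: ccGTTGCATCAgctggttagctggttccgc
Within 250 bases of the start the motif matched in 4 of 16 cytosolic members and 0 of 16 mitochondrial ones, against 3.38% of 33469 rat promoters. Rars1 was not among the 16 cytosolic members searched. None of the 4 was called, and their log2 changes were -0.38, -0.46, -0.51 and 0.39. A match is a description of the letters and not a measured binding site.

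Amino acid transporters gave 0 higher and 6 lower calls of 14 tested, with a median of -0.58, and after median-ratio scaling 1 lower call and a median of -0.25. Slc3a2, the heavy chain shared by several exchangers, fell from 279 ± 24.2 to 94.2 ± 60.2 TPM (-1.73, limma adjusted p = 0.00898) and was the 1 still called after that scaling (-1.32). Slc16a10 and Slc43a2, which carry aromatic and large neutral amino acids, had changes of -0.94 and -1.13. Of 12 tryptophan breakdown and interferon-gamma response genes, 7 passed the filter and were called higher, among them Cxcl10, Gbp2 and Cd274. Genes near 0 in Vehicle pass the filter only where LPS is high, so that count is no support for a direction. Ido1, the inducible tryptophan-degrading enzyme, was listed at 0 in all Vehicle samples and at 0.139 ± 0.241 TPM in LPS and was not tested. In a list of MYC and of genes for ribosome and tRNA supply, Myc (0.701 ± 0.234 to 20.7 ± 16.5 TPM) and Max were called higher of 19. Myc passed the filter only through its LPS level, and after median-ratio scaling its call was lost (limma adjusted p = 0.0657). Another 7 were called lower on the TPM scale and 0 after that scaling, including the RNA polymerase I factor Ubtf (-0.98), the RNA polymerase III factor Brf1 (-0.87) and the polymerase subunit Polr3a (-0.80).

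Markers of other cells moved with LPS in part. Principal cell markers gave 7 lower calls of 10 (1 after median-ratio scaling), intercalated cell markers 1 lower of 10 (0 after it). Monocyte and macrophage markers gave 6 higher and 1 lower calls of 11 tested (5 and 0 after it), and their summed level was 126 to 258 TPM in Vehicle and 230 to 458 TPM in LPS. Neutrophil markers summed to 0.0933 to 0.470 TPM in Vehicle and 2.19 to 81.7 TPM in LPS, with S100a8 at 0 in Vehicle. The 2 tested passed the filter only through LPS, so their higher calls support no direction, and 0 were called after median-ratio scaling. The T, B and NK cell markers summed to 6.75 to 11.4 and 9.35 to 12.2 TPM, with Gzmb, which passed the filter only through LPS, called higher of 3 tested (0 after it). Thick ascending limb markers summed to 154 to 184 and 154 to 332 TPM (1 higher of 6) and endothelial markers to 18.1 to 86.7 and 21.5 to 62.3 TPM (1 higher of 7). Proximal tubule markers (6.37 to 33.4 and 2.36 to 30.3 TPM), fibroblast markers (5.10 to 10.95 and 1.70 to 7.46) and red cell markers (336 to 1178 and 162 to 2410) gave 0 calls. Distal convoluted and connecting tubule markers summed to 181 to 5559 TPM in Vehicle and 111 to 556 TPM in LPS, with 3 lower of 6 and Pvalb at 0 in all samples. The part of these cells in the synthetase levels, Wars1 included, was not tested.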

How the data were processed

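RNA of 18 libraries (2 groups, 3 numbered samples each, 3 libraries per sample) was prepared, per the labels' protocols, with a SMARTer ultra-low-input kit and Nextera XT, which keep no strand. The deposited values are TPM per Ensembl gene. STAR 2.7.9a, RSEM 1.3.3 and Rnor_6.0 are named in the submitters' processing notes. The sources used here give no annotation release or filter. RSEM splits reads of near-identical copies by estimate. Column names begin with N, read as normal saline, or L, read as LPS.

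Here log2(TPM + 1) was averaged within each sample. Tested were genes reaching a mean of 1 TPM (12393; 20490 did not), by limma 3.58.1 in R 4.3.3, two-sided, with a variance trend, the sample number as a block and Benjamini-Hochberg adjustment over all tested genes. The scale understates changes of low genes. The fit has 2 residual degrees of freedom. Same-numbered samples correlated at 0.062, -0.017 and 0.069 in their deviations from the group means, and the pairing is taken from the design text.

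Members and the 20 lists (9 pathway, 11 marker) were chosen with earlier results of these data known. Named with values per sample were called members, the 3 most and least abundant per compartment in Vehicle and the largest uncalled change per direction; pathway genes named are up to 3 calls per direction with the smallest p, and other genes were chosen after their values were seen. The results of 1 member that this rule names are not reported here. Marker lists are given by their sums and counts. Promoters came from the RefSeq table (GRCr8), where 32 of 35 members matched. Alternatives were other summaries, pseudocounts, filters, scalings, variance models, no block, all libraries, and leaving out each number or, added after seeing the data, each sample. The fits that left out a single sample had no block. The fit was tested on simulated data.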

Additional observations from a re-analysis of the deposited data

How the results depend on the processing

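No alternative run here reversed the direction of a called member; the cytosolic median changed sign, to 0.0085 after median-ratio scaling. The number of cytosolic members called higher, 2, became 1 after median-ratio scaling, 1 after quantile normalization, 0 with the median over libraries and 0 with no filter on low values, and ranged from 1 to 3 when 1 sample or pair was left out. The number called lower, 2, became 6 without the replicate block, 10 with all 18 libraries and an estimated correlation, 1 with a filter at 5 TPM, 1 with no variance trend and 0 with the median over libraries, no filter, median-ratio scaling or quantile normalization, and ranged from 0 to 11 with a sample or pair left out. The number of mitochondrial members called lower, 5, became 8 without the replicate block, 11 with all 18 libraries and 0 with the median over libraries, no filter, median-ratio scaling or quantile normalization, and ranged from 0 to 13 with a sample or pair left out. The highest counts were those without LPS 1, from a fit that also had no block. The cause was not tested. With the median over libraries 0 of 12393 genes were called, although 1019 were higher and 4167 lower at an unadjusted p under 0.05, 2 and 12 of them members. With no filter 23716 genes were tested and 18 were called higher and 2 lower, against 1382 and 5352 at an unadjusted p under 0.05. The median log2 change after quantile normalization was -0.1001 (cytosolic) and -0.1306 (mitochondrial), and the mitochondrial median after median-ratio scaling was -0.1234. Rars1 was called in 17 of 19 alternatives, with log2 changes of 1.296 to 1.93 and a limma adjusted p of at most 0.0736. Kars was called in 12 of 19, Wars1, Cars2, Hars2, Vars2, Wars2 and Gars in 8 each, Sars1 in 7 of 19 and Tars3 in 7 of 18. TPM keeps no read number, so the depth behind low members such as Tars3 and Ears2 is unknown.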
